A study of Mus musculus with 17 samples.

Results

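RNA polymerase II reads protein-coding genes together with the general transcription factors, which place it at the start of a gene, and with Mediator, which links it to factors bound elsewhere on the DNA. Transcripts of these proteins were examined in 17 single 2-cell mouse embryos. A row of the array, that is 1 probe set with 1 value per embryo, was taken as a member where it carried exactly 1 gene symbol beginning Polr2, Gtf2, Med or Taf followed by a digit or a subunit letter, or the symbol Tbp, Tbpl1 or Tbpl2. The rule used names alone and no measured value, though it was set with earlier results of these data known. It gave 99 rows of 85 genes, among 21780 rows with exactly 1 symbol and 28815 rows in all. Most of the genes had 1 row. Polr2c, Polr2h, Polr2l, Med4, Taf10 and Taf13 had 2 rows each and Taf1d had 9, of which 3 repeated the values of another Taf1d row in every embryo, so the 99 rows hold 96 distinct measurements.

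All parents were wild-type mice of strain 129SVE (129S6/SvEvTac). The sires of 10 embryos had been injected every day for 6 weeks with PJ34, which blocks the enzymes PARP1 and PARP2 that make poly(ADP-ribose), and those of 7 control embryos had received saline. The labels also call the control sires untreated. Dams were untreated, and the embryos came from natural matings with 3 sires per group: A (1 embryo), B (3) and D (3) for the controls, and MTM11 (4), MTM13 (4) and MTM14 (2) for PJ34, each embryo being the product of 1 sperm. Embryos are named by sire and number, as in MTM11-2. Embryos that share a sire are not independent of him, and 3 sires per group limit every group comparison. The values were log2 RMA intensities (a background-corrected, quantile-normalized array signal), so a difference of 1 stands for a doubling of signal.

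At the 2-cell stage the mouse embryo begins the main wave of its own transcription while RNA stored in the oocyte is still present. The subunits of the polymerase and most general factors are used by every cell, whereas several paralogs belong to germ cells: TBPL2 takes the place of the TATA-binding protein TBP in growing oocytes, TBPL1 is needed for sperm formation, and Gtf2a1l and Taf7l are transcribed chiefly in the germ line. The array read the RNA of a whole embryo, so stored and new transcripts cannot be told apart, nor can RNA in fewer cells and less RNA per cell. The tissue label was checked against markers: 9 of 10 rows of genome-activation genes of this stage lay above the range of olfactory receptor rows (their 95th percentile), Usp17la being the exception, as did 15 of 17 rows of oocyte genes, against 1 of 11 rows for cumulus cells. The 10 genome-activation rows belong to 8 of the 17 genes listed, and the other listed genes had no row here. The mean level of the 2-cell rows per embryo ran from 8.95 to 9.45 in the controls and from 8.64 to 9.43 in the PJ34 embryos. That of the cumulus rows ran from 5.47 to 5.63 and from 5.45 to 5.67. For oviduct 3 of 6 rows, for blood 1 of 6 and for sperm and spermatid 3 of 9 lay above the olfactory range, against 49.2% of all rows with exactly 1 symbol.

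The DNA before the start sites of the catalytic polymerase subunit and of the TBP family is shown first, since TBP binds the TATA box and, of its family, Tbpl2 alone lay in the range of genes not in use. The sequences are the 250 bases before the annotated start in RefSeq (build GRCm38.p6), read 5′ to 3′ on the gene's strand: Polr2a at chr11:69758634-69758883 (minus strand), Tbp at chr17:15499638-15499887 (plus), Tbpl1 at chr10:22731448-22731697 (minus) and Tbpl2 at chr2:24096596-24096845 (minus). Capitals mark exact matches on either strand to a TATA box, with the letters TATAAA, to a GC box, with the letters GGGCGG, or to the core that ETS factors bind, with the letters CGGAAG. The last of these can overlap a GC box, which it does in none of the 4 sequences.
Polr2a: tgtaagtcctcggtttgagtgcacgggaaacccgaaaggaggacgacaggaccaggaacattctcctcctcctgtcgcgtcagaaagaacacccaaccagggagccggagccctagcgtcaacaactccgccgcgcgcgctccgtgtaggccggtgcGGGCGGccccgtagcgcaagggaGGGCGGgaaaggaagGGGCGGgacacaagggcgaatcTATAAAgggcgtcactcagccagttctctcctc
Tbp: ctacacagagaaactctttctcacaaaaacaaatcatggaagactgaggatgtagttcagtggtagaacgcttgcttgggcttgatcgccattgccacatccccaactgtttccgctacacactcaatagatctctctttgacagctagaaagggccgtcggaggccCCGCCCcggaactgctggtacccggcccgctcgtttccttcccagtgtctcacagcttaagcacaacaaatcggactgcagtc
Tbpl1: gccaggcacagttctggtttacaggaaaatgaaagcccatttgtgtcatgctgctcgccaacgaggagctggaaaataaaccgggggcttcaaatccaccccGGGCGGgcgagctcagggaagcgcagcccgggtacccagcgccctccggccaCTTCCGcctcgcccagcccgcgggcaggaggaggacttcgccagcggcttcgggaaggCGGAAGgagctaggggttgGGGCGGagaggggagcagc
Tbpl2: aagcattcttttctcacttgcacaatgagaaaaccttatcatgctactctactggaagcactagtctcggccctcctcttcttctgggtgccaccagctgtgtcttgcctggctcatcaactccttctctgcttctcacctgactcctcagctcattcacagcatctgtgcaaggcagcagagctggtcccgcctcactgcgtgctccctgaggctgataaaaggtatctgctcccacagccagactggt

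Polr2a held TATAAA with its first base 33 bases before the start, and 3 GC boxes that began 93, 70 and 55 bases before it. Tbp held 1 GC box on the opposite strand. Tbpl1 held 2 GC boxes and 2 matches to CGGAAG, 1 of them on the opposite strand. None of the 3 strings occurred in the Tbpl2 window as an exact match. Near matches were not searched, and this window holds gataaa close to its end. Of the 85 genes, 74 matched the RefSeq table by symbol, with 89 start sites in all. TATAAA occurred before 12 of these (13.5%) and before 12.4% of the 32851 start sites in the table. GGGCGG occurred before 52 (58.4%, against 32.7%) and CGGAAG before 31 (34.8%, against 13.6%). These are counts of letters and do not show that a factor was bound. The start sites of the table include those of genes not in use, and no background of similar level was taken.

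Most of the apparatus gave signal above that of genes not in use. Olfactory receptor genes, which stand here for genes not in use, set the limit: the 95th percentile of the control means of their 1035 rows was 6.29. Of the 99 member rows, 90 (90.9%) had a control mean above it, against 49.2% of all rows, and in 75 of them every embryo lay above it. All 15 rows of RNA polymerase II passed, with control means from 7.28 to 12.02, as did both rows of TFIIE, both of TFIIF and that of TFIIB. Of TFIIH, all 4 rows of the subunits named Gtf2h passed, and of its kinase and helicases, which carry other names, 4 of 6 rows, with Ercc2 (5.99) and a row of Cdk7 (5.15) below the limit. Gtf2h2 was not analysed here. In the TFIID TAFs, the factors that surround TBP, it was 17 of 19 rows, and in Mediator 29 of 31. These counts describe signal above that of unused genes, and the intensities of different rows depend on their probes and were not ranked against each other.

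**Figure D1:**
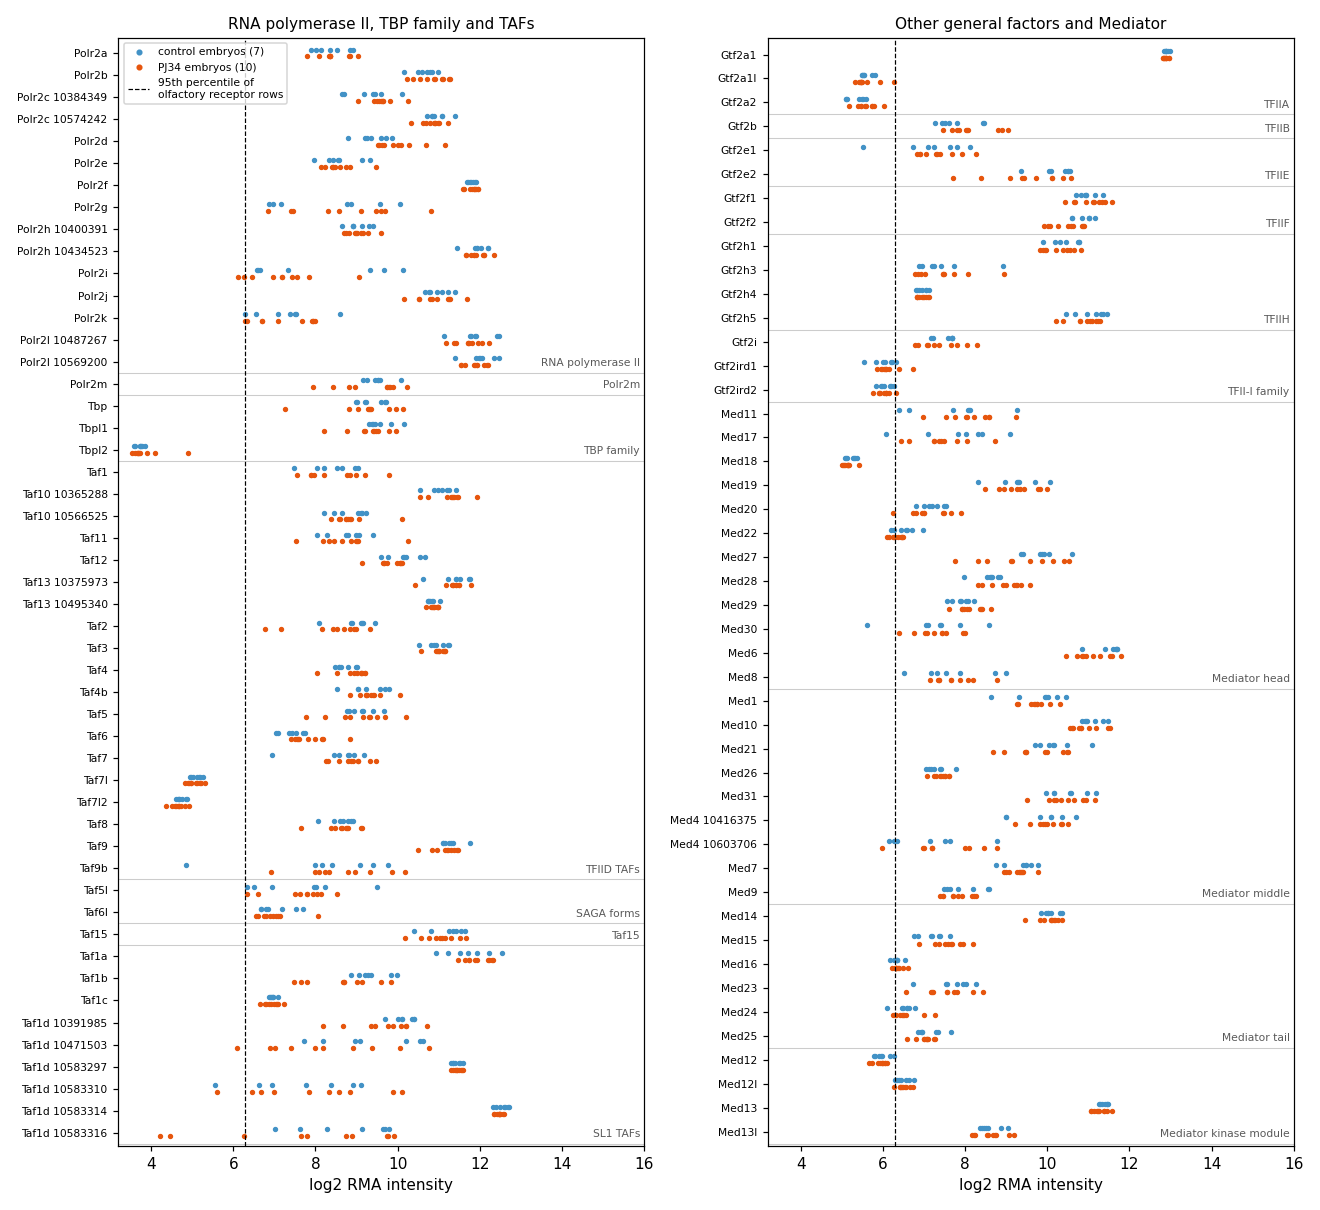
Level of each distinct member measurement (log2 RMA intensity, horizontal) in the 7 control embryos (blue) and the 10 PJ34 embryos (orange), by complex, with rows of 1 gene told apart by probe set number. The dashed line is the olfactory limit of 6.29. Tbpl2, Taf7l, Taf7l2, Gtf2a1l, Gtf2a2, Med12 and Med18 lie at or below it in every embryo. The embryos of Taf9b, Polr2g and Polr2i are far more scattered than those of Gtf2a1 or Polr2f.

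The 9 rows at or below the limit were those of Tbpl2, Taf7l, Taf7l2, Gtf2a1l, Gtf2a2, Gtf2ird1, Gtf2ird2, Med12 and Med18. Tbpl2, the oocyte form of TBP, had 3.72 ± 0.10 in the controls (SD, n = 7) and 3.85 ± 0.40 in the PJ34 embryos (n = 10). Taf7l, a germ-line form of Taf7, had 5.10 ± 0.12 and 5.05 ± 0.16, and Gtf2a1l, a germ-line form of the large TFIIA subunit, had 5.59 ± 0.13 and 5.59 ± 0.29. Not all genes of this group are germ-line forms: Gtf2a2, the small TFIIA subunit, had 5.34 ± 0.22 in the controls, and Med12, an activator of the Mediator kinase, had 5.98 ± 0.18. A row at this limit can also have probes that respond weakly, which was not tested.

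Other forms of these factors lay above the limit. Tbp ran from 8.99 through a median of 9.24 to 9.72 in the controls and from 7.25 through 9.32 to 10.12 in the PJ34 embryos. Tbpl1 ran from 9.30 through 9.44 to 10.15 and from 8.22 through 9.42 to 9.96. Gtf2a1, the large TFIIA subunit, had 12.90 ± 0.05 in the controls and 12.88 ± 0.05 in the PJ34 embryos, and Gtf2b, which bridges TBP and the polymerase, had 7.79 ± 0.48 and 8.17 ± 0.55. Taf4b, a gonad-enriched form of Taf4, had 9.27 ± 0.45 in the controls and 9.35 ± 0.32 in the PJ34 embryos, and Taf9b, a paralog of Taf9, had 8.23 ± 1.64 and 8.67 ± 0.97.

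In the group comparison, which asks whether embryos of PJ34-treated sires differed from those of control sires, no member row passed at an adjusted p below 0.1 in limma, and of all 21780 rows 0% were called. At an unadjusted p below 0.05, 5 member rows were higher in the PJ34 embryos (5.05%, against 1.96% of all rows) and 4 were lower (4.04%, against 3.93%). Among rows with a mean of at least 7, which leaves out most genes not in use, 4 of 84 member rows (4.76%) were higher, against 3.45% of 6752, and 4 (4.76%) were lower, against 5.6%. The median difference, PJ34 minus control, was -0.04 over the member rows and -0.02 over all rows, and 58.6% of the member rows were lower in the PJ34 embryos, against 56.4% of all rows. By complex the median difference was -0.01 for the 15 polymerase rows, 0.03 for the 19 TFIID rows, -0.05 for the 31 Mediator rows and -0.50 for the 12 SL1 TAF rows, of which 4 share the same values, but -0.08 over its 9 distinct measurements. SL1 is the TBP complex of RNA polymerase I, which makes ribosomal RNA.

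Polr2d, a subunit of the stalk of the polymerase, had the lowest p of the member rows. It ran from 8.79 through a median of 9.34 to 9.87 in the controls and from 9.53 through 9.95 to 11.16 in the PJ34 embryos. All 10 PJ34 embryos lay above the control mean, while the ranges overlapped. The log2 difference was 0.65 (95% interval 0.18 to 1.12, a ratio of 1.57), with an adjusted p of 0.814 in limma. The exact permutation p was 0.0108 for this gene alone, unadjusted and with the gene picked for its low p. That permutation moved single embryos without regard to sire, although the sires were what was treated.

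Of the rows higher in the PJ34 embryos, the next 5 by p lay in TFIID, Mediator and TFIIA, and none passed. Taf6, a histone-fold TAF, ran from 7.04 through 7.43 to 7.74 in the controls and from 7.40 through 7.71 to 8.83 in the PJ34 embryos, a difference of 0.45 (0.07 to 0.83). Med28 of the Mediator head differed by 0.42 (0.05 to 0.79) and Med15 of the tail, which binds activators, by 0.40 (0.06 to 0.75). Med29 differed by 0.23 (-0.05 to 0.51). Gtf2a2 differed by 0.26 (0.02 to 0.49), a difference in a row below the olfactory limit in every embryo (highest 6.02). Their adjusted p in limma lay between 0.843 and 0.869, and the control and PJ34 ranges overlapped for each of them.

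Among the rows with lower values, Gtf2f2, the small TFIIF subunit that escorts the polymerase to the promoter, ran from 10.60 through 11.02 to 11.16 in the controls and from 9.91 through 10.54 to 10.90 in the PJ34 embryos. It was below the control mean in 9 of 10 PJ34 embryos, with a difference of -0.44 (-0.76 to -0.12) and an adjusted p of 0.822. Taf1b of SL1 differed by -0.71 (-1.38 to -0.05), Gtf2e2, the small TFIIE subunit, by -0.72 (-1.47 to 0.02) and Med6 of the Mediator head by -0.40 (-0.78 to -0.02). Taf12, a histone-fold TAF, was below the control mean in all 10 PJ34 embryos and differed by -0.34 (an interval whose upper bound rounded to 0), and Med22 by -0.20 (-0.40 to 0.01). Adjusted p ran from 0.843 to 0.846 in limma for these 5 genes. Polr2a, the catalytic subunit, differed by 0.05 (-0.33 to 0.43), and Polr2b, the second largest, by 0.18 (-0.15 to 0.51). The sign of the Polr2a difference changed with single embryos or sires left out (lowest -0.075, without MTM14). Tbp differed by -0.13 (-0.77 to 0.51), and by 0.09 without MTM11-2.

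**Figure D2:**
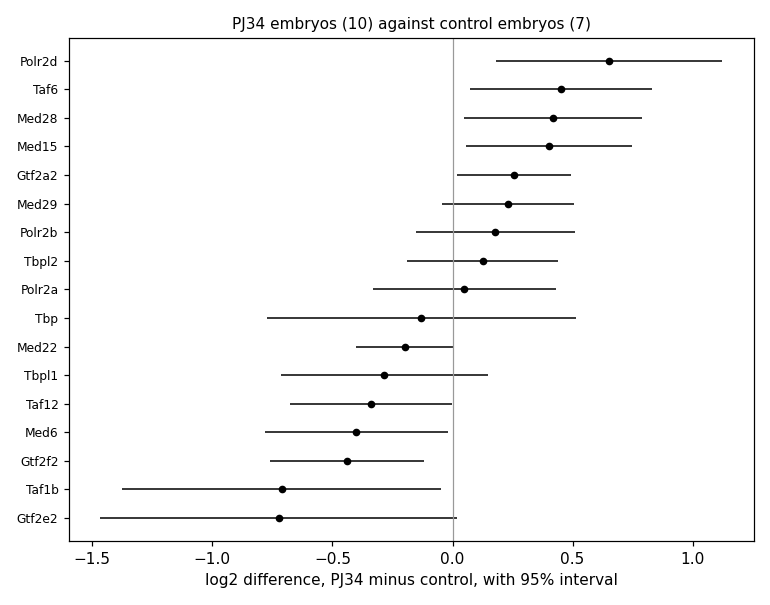
Difference between 10 PJ34 and 7 control embryos on the log2 scale (horizontal, PJ34 minus control) with its 95% interval from limma, for the 12 genes with the lowest p and for Polr2a, Polr2b, Tbp, Tbpl1 and Tbpl2. The intervals are unadjusted; that of Polr2d (0.18 to 1.12) lies farthest above 0 and none of the genes passed after adjustment over all rows.

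Genes that act on the polymerase outside the named families were read from lists of their own. The counts below are at an unadjusted p below 0.05, where 3.93% of all rows were lower in the PJ34 embryos and 1.96% higher, and no test was made of these short lists. In the 6 rows of the TFIIH kinase and helicases, 1 was lower, a row of Cdk7, the kinase of the polymerase tail, with a difference of -0.54. The other Cdk7 row, which lay below the olfactory limit, differed by 0.05. In the 3 rows of the Mediator kinase it was Ccnc, its cyclin, at 8.89 ± 0.63 in the controls and 7.86 ± 0.81 in the PJ34 embryos (-1.02). Of 26 rows for pausing and elongation, Hexim1, an inhibitor of the elongation kinase, was higher by 0.29 and in all 10 embryos above the control mean, while the elongation factor Supt6 (-0.36) and the histone chaperone subunit Supt16 (-0.45) were lower. None of the 8 rows for tail phosphatases and assembly passed even unadjusted. Of 16 rows of RNA polymerases I and III, 2 were lower: Polr1c, a subunit shared by both, at 10.39 ± 0.66 in the controls and 9.66 ± 0.23 in the PJ34 embryos, and Polr3k (-0.25). Of 9 rows of TFIIIB and TFIIIC 1 was lower, Gtf3c3 (-0.44). The adjusted p of these genes was between 0.814 and 0.843 in limma, so none passed.

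The 3 PJ34 families were compared with each other by an F test, and no member row passed at an adjusted p below 0.1, where 0.0138% of all rows did. Unadjusted, 10 of 99 rows (10.1%) had p below 0.05, against 4.91% of all rows. Among rows with a mean of at least 7 it was 8 of 84 (9.52%), against 7.35%. The lowest values belonged to Med13, which couples the kinase module to Mediator, and to Polr2f, followed by Polr2g, Polr2m and Taf1c, with adjusted p between 0.871 and 0.974 in limma. Med13 moved little: its 4 MTM13 embryos lay between 11.06 and 11.22, its MTM11 embryos between 11.07 and 11.39, and its MTM14 embryos at 11.58 and 11.47. Polr2g, the partner of Polr2d in the stalk, varied more, between 6.85 and 8.57 in MTM13, between 8.31 and 9.61 in MTM11, and at 10.80 and 9.68 in MTM14. The controls alone ran from 6.86 to 10.06 for Polr2g, and the PJ34 embryos of all sires from 6.85 to 10.80. Polr2m, whose product binds the polymerase and inhibits it, lay between 7.95 and 9.82 in MTM13, between 8.97 and 10.22 in MTM11 and at 9.88 and 9.73 in MTM14.

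Each family was also set against all 7 controls, which the 3 comparisons share. No member row passed in any of them. Of all rows 0.00459% passed for MTM11, 0% for MTM13 and 0.0551% for MTM14. For Polr2d the differences were 0.66 (MTM11), 0.76 (MTM13) and 0.42 (MTM14), and for Gtf2f2 -0.28, -0.57 and -0.48. For Taf6 they were 0.39, 0.24 and 1.00. Gtf2e2 had -0.84, -0.89 and -0.16.

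Single embryos gave the only member rows that passed a test. Each PJ34 embryo was set against the 7 controls, with the spread taken from the controls and p adjusted over the 21780 rows of that embryo, not over embryos. Between 63 and 200 rows were called per PJ34 embryo, and between 63 and 106 per control embryo set against the other 6. In at least 1 PJ34 embryo, 1 member row was higher (1.01%, against 4.02% of all rows) and 6 were lower (6.06%, against 0.799%). In at least 1 control embryo, 1 member row was lower (1.01%, against 0.28%) and 0 were higher (0%, against 2.5%). Of the 6 lower rows, 4 are the Taf1d rows with identical values. With repeated rows counted once, and among measurements with a mean of at least 7, 3 of 81 member measurements (3.7%) were lower in at least 1 PJ34 embryo, against 2.42% of all such measurements.

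Tbp was low in 1 embryo. In MTM11-2 it stood at 7.25, while the other PJ34 embryos lay between 8.82 and 10.12 and the controls at 9.35 ± 0.32 (8.99 to 9.72). The difference of MTM11-2 from the controls was -2.10, a level 4.29 times lower (adjusted p = 0.0637, limma). In the same embryo Tbpl1 was at 9.18 and Tbpl2 at 3.73, beside control means of 9.58 and 3.72. That Tbpl1 value lay below the lowest control (9.30), and the lowest PJ34 value was 8.22, in MTM13-1.

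The call for Tbpl2 came from another embryo of the same sire and lay below the olfactory limit, so no fold is given. MTM11-3 had 4.89, against 3.58 to 3.86 in the controls (adjusted p = 0.00988, limma). The next highest embryo was MTM14-2 at 4.09, and the remaining PJ34 embryos lay between 3.55 and 3.90. All 17 values were below the limit of 6.29, and a change in Tbpl2 transcript cannot be read from them.

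Gtf2e2, which helps to open the promoter with TFIIH, was at 7.70 in MTM11-1, against 10.21 ± 0.43 in the controls, a difference of -2.51 (5.71 times lower, adjusted p = 0.0505). In MTM13-2 it was at 8.38 and in MTM11-2 at 9.10, which did not pass, and the lowest control, D-3, had 9.36. Its partner Gtf2e1 had 7.17 ± 0.86 in the controls, with 1 control embryo at 5.53.

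Taf1d, a subunit of SL1 whose introns hold small nucleolar RNAs, passed in 2 embryos with the measurement that 4 of its rows repeat. It was at 8.19 in MTM11-4 (difference -1.96, adjusted p = 0.0254) and at 8.67 in MTM13-3 (-1.48, adjusted p = 0.0832, limma), against 10.15 ± 0.25 in the controls (9.71 to 10.40). The other distinct Taf1d rows did not pass and were divided. In MTM11-4 probe sets 10583316 (4.22, against 8.74 ± 1.11 in the controls) and 10471503 (6.90, against 9.33 ± 1.15) lay below every control, and 10583310 (5.61, against 7.61 ± 1.30) lay near the lowest control. Probe sets 10583297 (11.60, against 11.43 ± 0.11) and 10583314 (12.35, against 12.54 ± 0.15) lay within the control range. In MTM13-3 all 5 of these rows lay within the control range, 10583316 at 9.75 and 10583297 at 11.44. Which part of the gene each row reads was not analysed here, so these values are given per row. With the spread taken from all families, the adjusted p in limma rose to 0.201 for MTM11-4 and 0.608 for MTM13-3. The calls of Tbp and Gtf2e2 held under each of 5 alternatives. That of Tbpl2, whose values all lay below the olfactory limit, held under the 4 run for it.

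Of the controls, D-3 had Taf7, the TAF that holds back the enzyme activity of Taf1, at 6.95, against 8.79 ± 0.26 in the other 6 controls (-1.85, adjusted p = 0.0866, limma). The PJ34 embryos lay between 8.26 and 9.47. Taf9b in control B-2 was at 4.84, with the other controls between 7.98 and 9.77, and did not pass. Low values of a single member thus occurred in both groups.

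**Figure D3:**
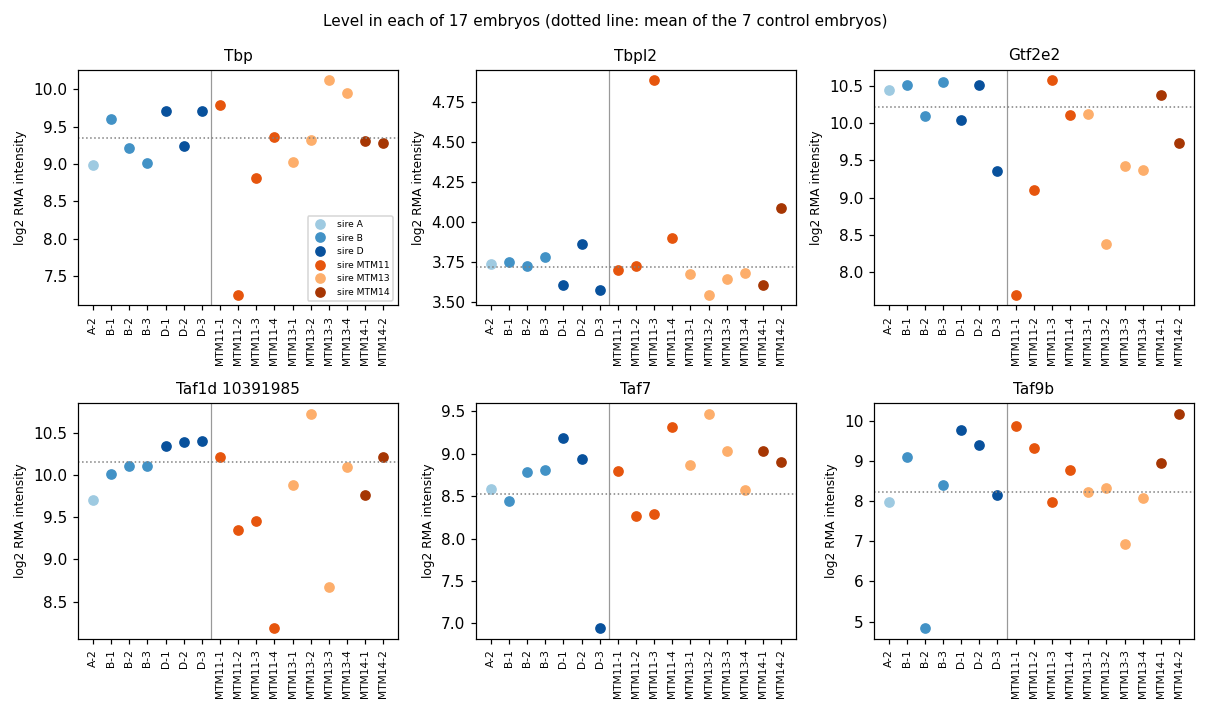
Level (log2 RMA intensity, vertical; each panel has its own scale) of 6 member rows in each of the 17 embryos, coloured by sire, with the 7 control embryos left of the grey line. Single points stand apart: Tbp at 7.25 in MTM11-2, Tbpl2 at 4.89 in MTM11-3, Gtf2e2 at 7.70 in MTM11-1, Taf1d at 8.19 in MTM11-4, Taf7 at 6.95 in control D-3 and Taf9b at 4.84 in control B-2.

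Some members varied far more between embryos than others. The SD within groups had a median of 0.38 over the member rows and 0.19 over all rows, and among rows with a mean of at least 7 it was 0.42 and 0.39. The widest spread was that of the Taf1d row 10583316, with an SD of 1.79, followed by other Taf1d rows, Taf9b (1.28), Polr2g (1.27) and Polr2i (1.21). Polr2i, a small subunit that affects start-site choice and proofreading, read 9.67, 9.33 and 10.13 in controls A-2, B-2 and D-2 and between 6.59 and 7.33 in the other 4 controls. In the PJ34 embryos it was at 9.06 in MTM11-3 and between 6.12 and 7.85 in the other 9. Taf5l, a SAGA form of Taf5, had an SD of 0.88, as did the Med4 row 10603706. At the other end were Gtf2a1 (0.05), the Taf13 row 10495340 (0.10) and the Taf1d rows 10583297 (0.10) and 10583314 (0.11). Next came Med16 (0.11) and Polr2f (0.12), a subunit shared by all 3 nuclear polymerases.

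Rows of the same gene did not always move together. Over the 17 embryos, with group means removed, Pearson's r between the pair of rows was 0.988 for Polr2l, 0.786 for Polr2h, 0.515 for Polr2c, 0.501 for Med4, 0.47 for Taf13 and 0.096 for Taf10. Between distinct Taf1d rows it ran from -0.388 to 0.518. These are descriptions without a test, and the values of genes with several rows are uncertain to that extent: copies of a gene elsewhere in the genome can share probes, which was not tested.

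Subunits of a complex had correlations between embryos centred near 0. With group means removed, the median r over the 420 pairs of different genes within a complex was -0.03, against 0.04 over all pairs of the 21780 rows, 0.00225 over pairs of the rows with a mean of at least 7 and 0.00347 over member pairs of different complexes. It was -0.06 for RNA polymerase II (102 pairs), -0.05 for the TFIID TAFs (169 pairs) and -0.03 for the Mediator head (66 pairs), with 42.2%, 44.4% and 48.5% of pairs above 0. For TFIIH and the Mediator kinase module, with 6 pairs each, the medians were 0.26 and 0.27. The medians include rows below the olfactory limit in every embryo: Med12 in the kinase module, Taf7l and Taf7l2 in TFIID and Med18 in the head. All values share the same 17 embryos and arrays, and no test was made of these medians.

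The pair with the highest r in each complex was named. Taf12 and the Taf13 row 10375973, histone-fold partners of other TAFs, had r = 0.704 (Spearman's rho = 0.453), with permutation p of 0.00179 and 0.0697 and adjusted p of 0.218 and 0.793 over the 420 pairs. Within the controls r was 0.715 and within the PJ34 embryos 0.696. Without the 2 embryos farthest from the median of Taf12, r fell to 0.223, so its size depended on those embryos. With the other Taf13 row r was 0.301 and rho 0.0466. Med23 and Med24, neighbours in the Mediator tail, had r = 0.615 and rho = 0.664 (permutation p = 0.00955 and 0.00472, adjusted p = 0.668 and 0.496), with 0.69 without the 2 embryos. Polr2a and Polr2b, which form the active centre, had r = 0.573 and rho = 0.632 (permutation p = 0.0176 and 0.0083, adjusted p = 0.787 and 0.555), 0.458 within the controls, 0.649 within the PJ34 embryos and 0.499 without the 2 embryos. For Gtf2h3 and Gtf2h4 r was 0.493, for Taf1c and the Taf1d row 10471503 0.452, for Med27 and Med29 0.45, for Med1 and Med26 0.426 and for Med12 and Med13 0.421, with adjusted permutation p from 0.801 to 0.854. Med12 lay below the olfactory limit in every embryo, so its r with Med13 rests on signal in the range of genes not in use. None of the 420 pairs passed an adjusted p of 0.1 by either measure. By Pearson's r, 25 of the 420 had an unadjusted permutation p below 0.05, 11 with r above 0 and 14 below. By chance alone a share of about 0.05 of pairs falls below that threshold. No share over other row pairs was taken, so the count is not read as a result. The negative pairs, looked up after the values were seen, reached values of r as far from 0 as the positive ones. Polr2a and the Polr2h row 10400391 had r = -0.709 and rho = -0.62, with the lowest permutation p by Pearson's r (0.00151, adjusted p = 0.218), and -0.603 without the 2 embryos. Taf12 and Taf9 had r = -0.689 and rho = -0.74, with the lowest permutation p by rho (0.00108, adjusted p = 0.317), and -0.586 without the 2 embryos.

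**Figure D4:**
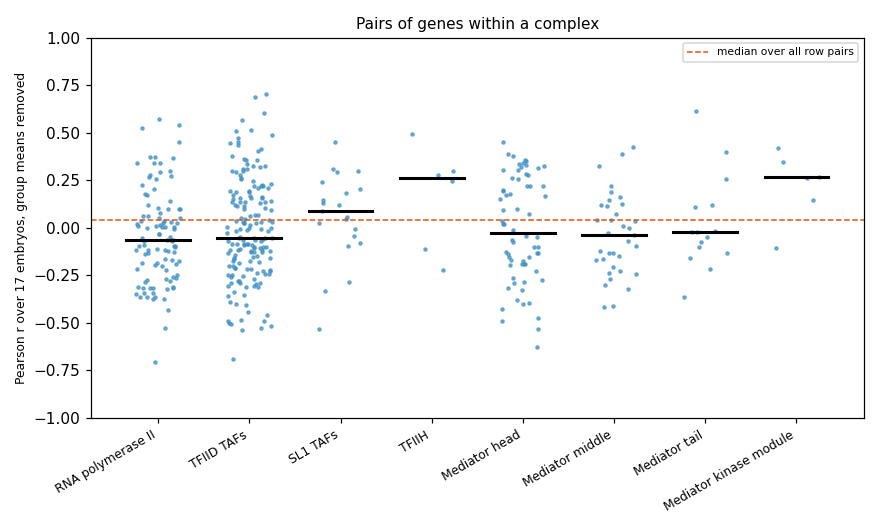
Pearson's r over the 17 embryos, after removal of group means, for every pair of different genes within a complex (1 point per pair, vertical axis from -1 to 1), for the 8 complexes with at least 4 rows. Black bars are medians and the dashed line is the median over all row pairs, 0.04; the bars of RNA polymerase II, the TFIID TAFs and the Mediator head, middle and tail lie just below 0.

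The mean of a complex per embryo, as the deviation from the 17-embryo mean of each row, was narrow for most complexes. The 15 polymerase rows ran from -0.21 (control B-3) to 0.18 (MTM14-1), and the 31 Mediator rows from -0.16 (MTM13-1) to 0.16 (control D-1). SL1 had the widest range of the complexes with at least 3 rows: its 9 distinct rows ran from -0.02 to 0.33 in the controls and from -1.07 (MTM11-4) to 0.39 (MTM11-3) in the PJ34 embryos. The mean SL1 deviation was 0.18 ± 0.11 in the controls (SD, n = 7) and -0.13 ± 0.46 in the PJ34 embryos (n = 10), and the ranges overlapped. Of the 9 rows, 6 belong to Taf1d, and the width lay among these. Their mean deviation ran from -1.60 (MTM11-4) to 0.60 (MTM11-3) in the PJ34 embryos, while that of Taf1a, Taf1b and Taf1c ran from -0.53 (MTM13-3) to 0.41 and was -0.01 in MTM11-4. The range is thus mainly that of some Taf1d rows. The Taf1d rows 10583297 and 10583314 had within-group SDs of 0.10 and 0.11 and lay within the control range in MTM11-4.

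**Figure D5:**
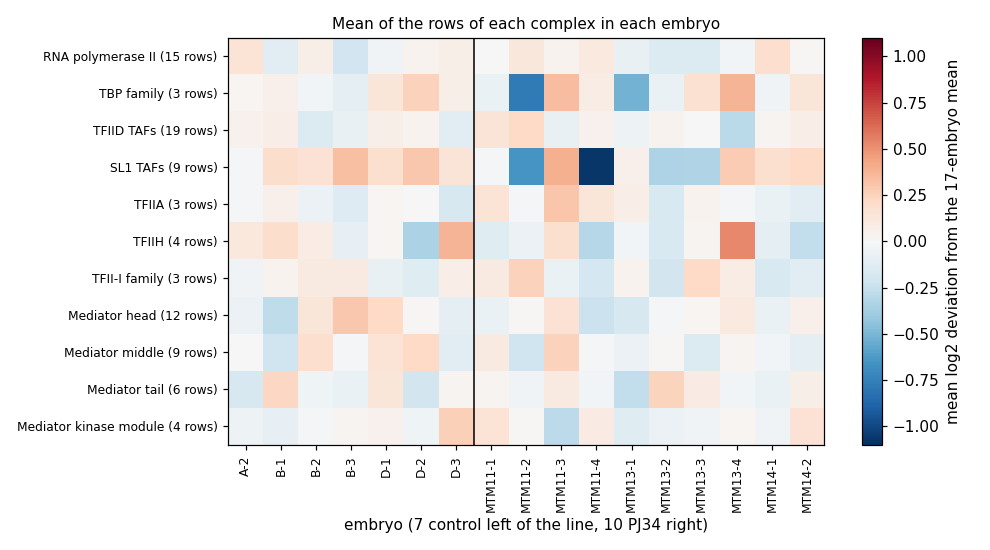
Mean log2 deviation of the rows of each complex from their 17-embryo means (colour, red above and blue below 0), for complexes with at least 3 rows, in 7 control embryos (left of the line) and 10 PJ34 embryos. SL1 in MTM11-4 (-1.07) and in MTM11-2 (-0.65) and the TBP family in MTM11-2 (-0.77) are the lowest cells; the former 2 rest on Taf1d rows and the last mainly on Tbp.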

How the data were processed

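RNA of 17 single 2-cell embryos (10 PJ34, 7 control) was amplified (WT-Ovation One-Direct kit) and read on Affymetrix Mouse Gene 1.0 ST arrays, 1 per embryo. The authors deposited log2 values made by RMA (background correction, quantile normalization, log2 transformation, probe set summarization) in Partek Genomics Suite. For versions and genome build: not given in the sources used here. Array medians lay between 6.12 and 6.23. Arrays have no read depth, and the number of embryos limits precision, with a median standard error of 0.09 for a row's group difference.

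Groups and sires came from the sample labels. Rows were named through the platform annotation. Of 28815 rows, 21780 had 1 symbol, 1605 several and 5430 none, and 21689 matched a RefSeq gene table, used for names. Tests were fitted on all 21780 rows in R 4.3.3 with limma 3.58.1 (two-sided, Benjamini-Hochberg adjustment over all rows, threshold 0.1): PJ34 against control, an F test over PJ34 sires with each family against the controls in the same fit, and each PJ34 embryo against the 7 controls. The fits were run on simulated data. For the group fit the simulated embryos were drawn independently of sire, with shifts larger than the group differences of the member rows. That run therefore did not test how shared sires or small differences affect the fit. Single genes were also compared by an exact permutation test over the 19448 ways to assign 10 of the 17 embryos, and pairs of genes by a permutation test with 100000 resamples (Python 3.11.15, numpy 2.4.6). Figures used matplotlib 3.10.9.

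The members and gene lists were chosen with earlier results of these data known. Named were the 6 genes with the lowest p per direction between groups, the 5 with the lowest p between sires, up to 3 past the threshold per family and direction and up to 2 per PJ34 embryo, the 6 with the widest spread, the closest pair per complex and a set of genes by role. Alternatives were array centring, a minimum mean of 7, all rows of the array, rows averaged per gene, an intensity trend with a robust prior, plain analysis of variance, sire as a random block, sire means, another source of spread, and leaving out each embryo or sire.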

Additional observations from a re-analysis of the deposited data

Results flagged for a closer look

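Among 51 named rows, each tested within both groups (102 tests), 11 had an embryo that stood apart from the rest of its group by a gap large against the group's range (Dixon's criterion). Chance alone flags 5.1 of 102 tests, but some of these rows were named because a single embryo stood apart or because their spread was wide, so the count cannot be set against chance. In the control embryos, the low values were Med28 in D-3 (7.97, next 8.54), Med6 in A-2 (10.84, next 11.40), Gtf2e2 in D-3 (9.36, next 10.04), Taf7 in D-3 (6.95, next 8.45) and Taf9b in B-2 (4.84, next 7.98), and the high values were Taf1c in B-3 (7.10, next 6.97) and Taf9 in B-3 (11.76, next 11.35). Control D-3 thus holds 3 of the low values. In the PJ34 embryos, the low values were Tbp in MTM11-2 (7.25, next 8.82) and Taf12 in MTM14-2 (9.14, next 9.64), and the high values were Tbpl2 in MTM11-3 (4.89, next 4.09) and the Taf10 row 10566525 in MTM11-2 (10.11, next 9.05). The causes were not tested.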

How the results depend on the processing

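Of 860 recomputed values, 844 kept their direction and their side of the threshold, or moved by less than the spread. For the correlation medians that spread was computed from the same leave-one-out values that it judged. Lists without a passing row and genes far from the threshold could hardly change sides. The share of unchanged values is therefore no measure of robustness. No member row passed between the groups, between the PJ34 sires or in a PJ34 family under any alternative run, plain analysis of variance and sire as a random block included. The latter called 2 of the 21780 rows. Leaving out single embryos, the median member difference ran from -0.05 to -0.02 and the median within-complex correlation from -0.04 to -0.01. The median SD of member rows was 0.42 for rows with a mean of at least 7. Counting rows with identical values once, an alternative chosen after seeing the data, gave 4 member measurements in place of 7 rows called in single PJ34 embryos, and the other alternatives gave 6 to 8.

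Signs turned for 3 genes that did not pass. For Polr2a the difference ran from -0.0334 to 0.14 with single embryos left out, and was -0.013 without sire A and -0.075 without sire MTM14. For Tbp it ran from -0.23 to 0.0893 with single embryos left out, and was 0.0193 without sire D and 0.15 without sire MTM11. For Tbpl2 it was -0.0134 without sire MTM11. The Taf1d call in MTM13-3 was lost with a minimum mean of 7 (adjusted p = 0.187), with an intensity trend and robust prior (0.108) and with the spread of all families (0.608), and that in MTM11-4 with the spread of all families (0.201). The median r within the TFIID TAFs was 0.00490 by Spearman's rho. The causes were not tested. No paired analysis was possible because embryo numbers only name embryos within a sire. Arrays at signals near the olfactory limit resolve little, which bears on the 9 rows there.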

Other observations

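Another 3 rows carried a symbol of these families beside that of another gene and were left out of all counts. The row of Ak6 and Taf9 had 10.33 ± 0.34 in the controls (SD, n = 7) and 10.13 ± 0.47 in the PJ34 embryos (n = 10), that of Usp49 and Med20 had 7.01 ± 0.44 and 7.27 ± 0.48, and that of LOC100862456 and Polr2k had 11.08 ± 0.35 and 10.77 ± 0.50. Which of the symbols each row reads was not analysed here.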
